A study of Mus musculus with 32 samples.

Results

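The SLAM receptors and their adaptor SAP were followed across the lymphoid tissues of mice with and without a CD30 ligand transgene. The 10 genes were Slamf1, Slamf6, Slamf7, Slamf8, Slamf9, Ly9, Cd48, Cd84, Cd244 and Sh2d1a, the last of which encodes SAP. All probe sets whose symbol in the array's annotation was one of these were taken, which gave 16 of the 45037 probe sets on each array, for 10 of 18193 genes named there. Cd244 was listed there as Cd244a, a synonym in RefSeq. RNA from peripheral lymph node, mesenteric lymph node, spleen and thymus was hybridised to 32 Affymetrix arrays. CD30L transgenic mice (4) overexpressed CD30L, a TNF family ligand also called Tnfsf8, in T cells from a construct whose name in the labels, CD2-CD30L, points to CD2 sequences. Wild type littermates (4) did not carry it. All 8 mice were female C57BL/6 animals aged 12 weeks, each mouse gave all 4 tissues, and each array held 1 tissue of 1 mouse, so replicates came from separate animals. The number of founder lines was not given in the sources used here.

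SLAM receptors are immunoglobulin superfamily proteins of blood cells. Most bind their own kind on a neighbouring cell, so that lymphocytes in contact signal to each other, while CD48 instead is the ligand of CD244 and, in mice, of CD2. SAP is a small SH2 domain protein that docks on phosphorylated tyrosine motifs in the receptors' tails and brings in the kinase FYN. In mice and humans, loss of SAP impairs help from follicular T cells to germinal centre B cells and stops the development of NKT cells, which are selected in the thymus through contacts between thymocytes. SLAMF8 and SLAMF9 have short tails without these motifs and are known mainly from myeloid cells.

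For 8 of the 10 genes a promoter window was found in the RefSeq table (build GRCm38.p6). Ly9 and Sh2d1a did not match. Each window ran 5′ to 3′ on the gene's strand, with 250 bases before the annotated start and 50 after it. Slamf7 is shown because its level differed most between the genotypes over the 4 tissues, and Slamf8 and Slamf9 because they had the lowest thymus levels relative to lymph node. The Slamf7 window was chr1:171648950-171649249 on the minus strand, the Slamf8 window chr1:172590519-172590818 on the minus strand, and the Slamf9 window chr1:172475110-172475409 on the plus strand. Capitals mark GAAAGT in Slamf7, letters within the site of PRDM1, a repressor needed for plasma cell formation. In Slamf9 they mark GAGGAA and in Slamf8 its reverse complement TTCCTC, core letters of PU.1, the myeloid and B cell factor encoded by Spi1.
Slamf7: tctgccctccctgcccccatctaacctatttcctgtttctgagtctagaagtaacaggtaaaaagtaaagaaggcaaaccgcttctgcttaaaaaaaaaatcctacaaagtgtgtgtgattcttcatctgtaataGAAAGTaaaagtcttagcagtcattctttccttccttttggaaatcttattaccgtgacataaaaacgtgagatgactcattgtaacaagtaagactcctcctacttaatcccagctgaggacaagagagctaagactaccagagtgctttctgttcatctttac
Slamf8: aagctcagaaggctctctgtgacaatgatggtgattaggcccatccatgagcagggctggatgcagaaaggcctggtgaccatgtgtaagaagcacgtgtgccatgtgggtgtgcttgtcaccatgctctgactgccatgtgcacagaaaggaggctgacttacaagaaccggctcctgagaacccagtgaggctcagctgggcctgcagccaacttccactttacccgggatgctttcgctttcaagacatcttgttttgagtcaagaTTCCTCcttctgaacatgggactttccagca
Slamf9: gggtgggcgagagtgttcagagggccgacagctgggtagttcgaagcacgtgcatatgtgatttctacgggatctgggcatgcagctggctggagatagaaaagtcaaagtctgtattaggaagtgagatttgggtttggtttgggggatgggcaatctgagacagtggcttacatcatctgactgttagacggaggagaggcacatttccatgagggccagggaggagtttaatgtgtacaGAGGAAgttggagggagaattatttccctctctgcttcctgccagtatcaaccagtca
Read on both strands, GAGGAA was in 4 of the 8 windows (Slamf8, Slamf9, Cd84 and Cd244) and in 28.3% of 32851 promoter windows of the same length. GAAAGT was in 2 of the 8 (Slamf7 and Slamf8) and in 14.3% of all windows. No match of one overlapped a match of the other. These matches describe letters and not bound sites.

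Levels are log2 of the deposited intensity plus 16, after quantile normalization. For comparisons of tissues the 32 arrays were normalized together (the common scale), and for comparisons of genotypes the 8 arrays of a tissue were normalized together (the tissue scale). Tests were made with limma on all probe sets past a filter on dim ones, and a call means a Benjamini-Hochberg adjusted p under 0.05. A fold change on this scale understates the change of dim probe sets. Past the filter were 15 of the 16 SLAM family probe sets over the 32 arrays, and 15 in peripheral node, 14 in mesenteric node, 15 in spleen and 13 in thymus. One Slamf1 probe set (1425571_at) never passed and was at or below 0 on 14 of 32 arrays, and both Cd244 probe sets fell below the filter in thymus. Each gene is described by its brightest probe set, and levels of different genes are not compared, since each probe set has its own response.

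Median intensity per array lay between 30.3 and 73.7, and between 14.9% and 18.4% of values were negative. Marker levels fitted the labelled tissues: the thymocyte list mean was 11.2 to 11.3 in thymus arrays of both genotypes and at most 7.58 on any other array. Some arrays stood apart. In peripheral node, wild type mice 1 and 3 and transgenic mouse 1 had skeletal muscle list means of 7.48 to 10.2, and in mesenteric node, transgenic mice 1 and 3 and wild type mouse 2 had pancreas list means of 12.7 to 13.2. The 3′ to 5′ signal ratio of Actb, a sign of RNA integrity, was 2.83 to 3.58 in the 4 spleens of mice numbered 1 and 2 and 1.65 to 1.85 in the 4 of mice numbered 3 and 4. The Tnfsf8 probe set showed no called difference in any tissue (log2 differences of -0.10 to 0.07, adjusted p of 0.893 to 0.984 by limma). Whether it reads the transgene's transcript was not known from the sources used here, so it checks neither the labels nor the transgene.

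In wild type mice, all 10 genes differed between thymus and each of the other tissues, and they split into a group that was higher in thymus (Sh2d1a, Slamf1, Slamf6 and Cd84) and a group that was lower (Slamf7, Slamf8, Slamf9, Ly9, Cd48 and Cd244). Of the 15 probe sets tested, 13 were called against peripheral node, 13 against mesenteric node and 14 against spleen, where 58.7%, 56.7% and 52% of all 27022 probe sets were called. By direction, 29% of all probe sets were higher and 29.6% lower against peripheral node, 29.5% and 27.2% against mesenteric node, and 27.5% and 24.5% against spleen. The median log2 difference of the 15 was 0.12, -0.11 and 0.18 in the same order. The 3 comparisons share the thymus arrays. On the values as deposited, without quantile normalization, the calls of Slamf1, Slamf6 and Cd84 against peripheral node, of Slamf6 and Cd244 against mesenteric node and of Cd84 against spleen were lost (adjusted p of 0.0696 to 0.52, limma). In whole tissue, fewer cells of a type and less RNA per cell cannot be told apart.

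**Figure D1:**
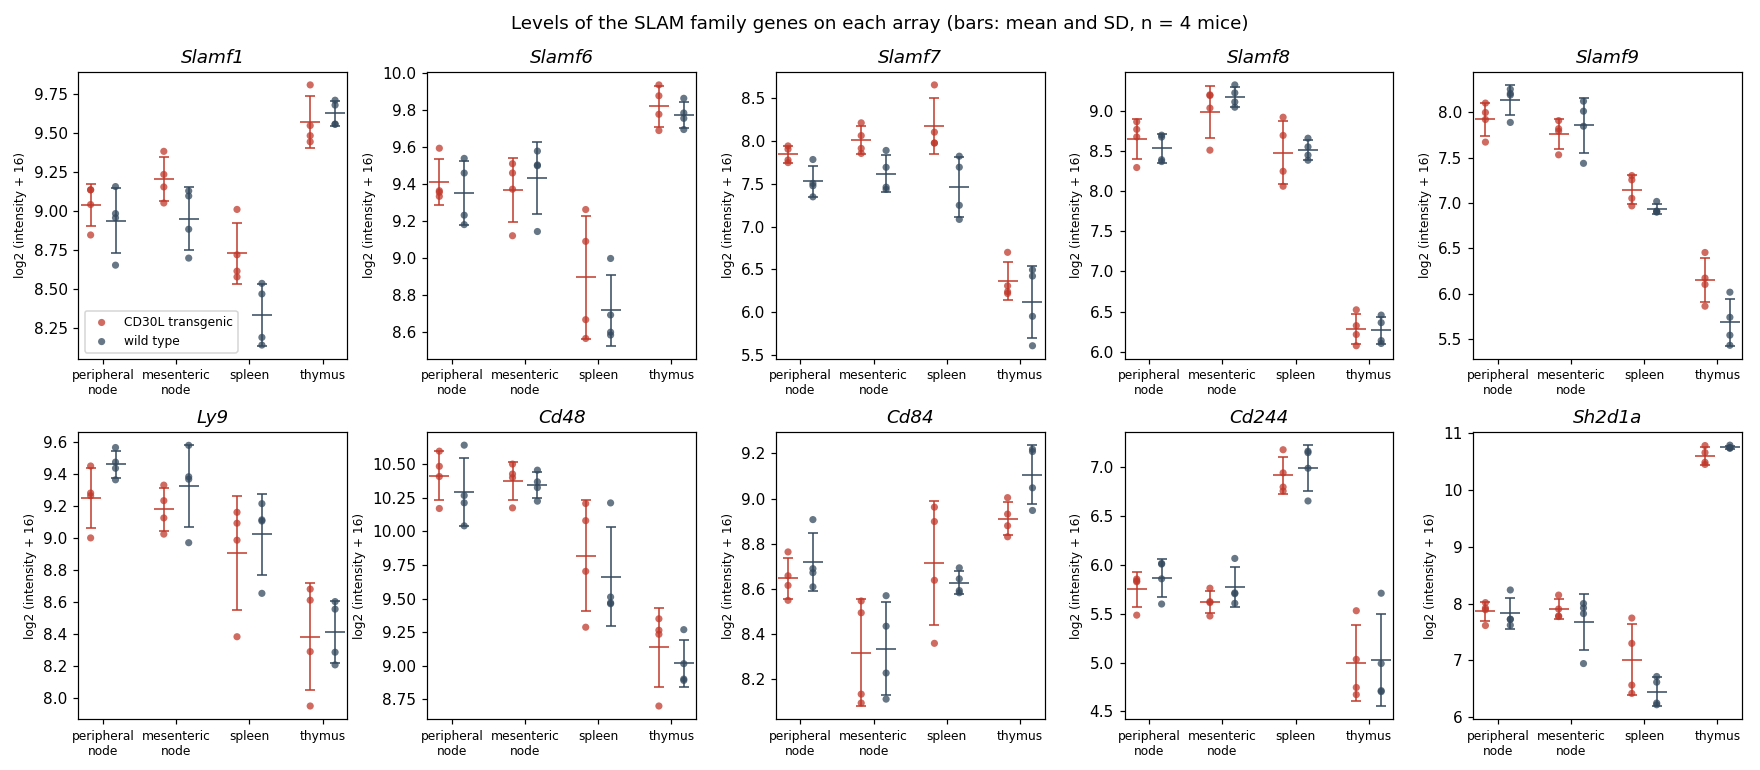
Level of each gene's brightest probe set on each array, as log2 (intensity + 16) on the common scale, in peripheral node, mesenteric node, spleen and thymus. Each point is 1 mouse, bars are the mean and SD of 4 mice, and each panel has its own vertical axis. Sh2d1a is above 10 on every thymus array and at most 8.24 elsewhere, while Slamf8 and Slamf9 are lowest in thymus.

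Sh2d1a had the largest tissue difference. Its level in wild type thymus was 10.74, 10.75, 10.79 and 10.75 on the common scale. In wild type peripheral node it was 7.72, 7.73, 8.24 and 7.62, in mesenteric node 7.83, 6.95, 8.0 and 7.92, and in spleen 6.22, 6.25, 6.62 and 6.72. The groups of thymus, node and spleen arrays did not overlap, and the thymus arrays were tightly packed. The log2 difference was 2.93 ± 0.22 (SE, n = 4 mice, limma) for thymus over peripheral node (adjusted p = 8.39e-12), 3.08 over mesenteric node and 4.30, or 19.8-fold, over spleen. In spleen Sh2d1a was also lower than in peripheral node by 2.60-fold (adjusted p = 1.71e-05, limma, n = 4) and lower than in mesenteric node by 2.33-fold. In transgenic mice thymus was also highest and spleen lowest, with thymus over spleen at 12.0-fold (log2 3.59 ± 0.22).

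Of the pan T cell markers, which include CD3 chains and Cd28, all but Cd2 followed a like order. Cd2 was 9.87 in wild type thymus, below peripheral node (10.53) and mesenteric node (10.14) and above spleen (9.60). The list mean over 8 genes, Cd2 included, was 11.2 in wild type thymus, 10.5 in peripheral node, 10.1 in mesenteric node and 9.06 in spleen. The summed intensity of these markers was 23190 to 23720 in wild type thymus against 4490 to 5126 in wild type spleen. Their part in the Sh2d1a differences was not tested.

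Slamf1 encodes the receptor SLAM (CD150) on T cells, B cells and stem cells. In wild type thymus it was 9.56, 9.71, 9.56 and 9.68 on the common scale, against 8.96, 8.98, 8.65 and 9.16 in peripheral node, 9.13, 8.70, 8.88 and 9.10 in mesenteric node and 8.54, 8.47, 8.19 and 8.14 in spleen. No thymus array reached down to a spleen or node array, since the highest wild type node array was at 9.16. The log2 difference of thymus over spleen was 1.29 ± 0.12 (adjusted p = 8.17e-10, limma, n = 4), with 0.69 over peripheral node and 0.67 over mesenteric node. Spleen was lower than both nodes, at -0.60 against peripheral node and -0.62 against mesenteric node. The other Slamf1 probe set past the filter (1425569_a_at) was also called higher in thymus, by 1.20 to 2.16.

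Slamf6, a receptor on T, B and NK cells also known as Ly108, was 9.78, 9.76, 9.86 and 9.70 in wild type thymus, against 9.23, 9.54, 9.18 and 9.46 in peripheral node, 9.5, 9.14, 9.5 and 9.58 in mesenteric node and 8.58, 8.60, 9.0 and 8.69 in spleen. Thymus and spleen were well separated, while thymus and the nodes lay close. Thymus exceeded spleen by 1.06 ± 0.13 on the log2 scale (adjusted p = 1.42e-07, limma, n = 4), 0.42 over peripheral node and 0.34 over mesenteric node. With wild type mouse 1 or 3 left out, peripheral node gave no call (adjusted p = 0.0536 and 0.0708, limma), and mesenteric node gave none with mouse 1, 2 or 3 left out (0.0636 to 0.165). Its 3 probe sets disagreed on the nodes. Against peripheral node, 1457773_at gave 0.87 (adjusted p = 2.78e-06, limma) and 1420659_at gave 0.12 (adjusted p = 0.451). Against mesenteric node, 1420659_at gave -0.11 (adjusted p = 0.492).

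Cd84, a receptor that binds itself on B cells, T cells and platelets, was 8.95, 9.05, 9.22 and 9.21 in wild type thymus. It was 8.61, 8.69, 8.91 and 8.67 in peripheral node, 8.23, 8.11, 8.57 and 8.43 in mesenteric node and 8.58, 8.64, 8.69 and 8.59 in spleen. Mesenteric node was lowest, and only thymus was above all other arrays. Thymus exceeded peripheral node by 0.39 ± 0.12 (log2, adjusted p = 0.00786, limma, n = 4), mesenteric node by 0.77 and spleen by 0.48. Without wild type mouse 4 the call against peripheral node was lost (adjusted p = 0.0619). In transgenic mice thymus exceeded peripheral node by 0.27 and spleen by 0.20, without a call (adjusted p = 0.0722 and 0.187, limma), while the first was called with the mouse as a block (0.0162). In wild type mice mesenteric node was below peripheral node in 4 of 4 (-0.38), without a call unless the mouse was a block (adjusted p = 0.0827, and 0.0164 with the block, limma). Wild type spleen lay above mesenteric node in 4 of 4 mice by 0.29, with an adjusted p of 0.0592, and 0.0126 with the block. The dimmer Cd84 probe set (1446505_at) was 6.83, 6.93, 7.63 and 7.69 in wild type thymus and 6.95, 7.08, 7.23 and 7.10 in spleen, overlapping. It was 6.23, 6.13, 6.68 and 6.30 in peripheral node and 6.78, 6.41, 6.71 and 6.37 in mesenteric node, below every thymus and spleen array. The brighter probe set overlapped between spleen and peripheral node.

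Ly9, a receptor of T and B cells that binds itself, was lower in thymus than in every other tissue. It was 8.60, 8.55, 8.29 and 8.21 in wild type thymus, against 9.48, 9.44, 9.36 and 9.57 in peripheral node, 9.58, 8.97, 9.38 and 9.37 in mesenteric node and 9.11, 9.11, 9.22 and 8.65 in spleen. None of the thymus arrays overlapped another tissue. Thymus minus peripheral node was -1.05 ± 0.17 on the log2 scale (adjusted p = 5.49e-06, limma, n = 4), with -0.91 against mesenteric node and -0.61 against spleen. Spleen was also below peripheral node (-0.44, adjusted p = 0.0377, limma), a call lost without wild type mouse 1, 2 or 4 (0.0621 to 0.277). The group higher in thymus and the group lower in thymus both held receptors of T and B cells.

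Cd48, the GPI-anchored ligand found on nearly all blood cells, was 8.90, 9.02, 9.27 and 8.89 in wild type thymus, against 10.27, 10.64, 10.04 and 10.21 in peripheral node, 10.37, 10.22, 10.33 and 10.46 in mesenteric node and 9.46, 9.47, 10.21 and 9.51 in spleen. Thymus was lowest without overlap, and the spleen of wild type mouse 3 stood at the level of the nodes. The log2 difference was -1.27 ± 0.18 for thymus against peripheral node (adjusted p = 9.35e-07, limma, n = 4), -1.32 against mesenteric node and -0.64 against spleen. Spleen was below peripheral node (-0.63, adjusted p = 0.00682, limma), in 3 of 4 mice, but not with an adjusted p under 0.05 once wild type mouse 1 (0.0509) or mouse 2 (0.108) had been left out.

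Cd244, the receptor 2B4 of NK cells and some T and myeloid cells, was the one gene called higher in spleen than in both nodes. It was 7.15, 6.99, 7.17 and 6.66 in wild type spleen, against 5.86, 6.01, 6.02 and 5.60 in peripheral node, 5.71, 5.61, 5.71 and 6.07 in mesenteric node and 4.71, 4.70, 5.71 and 4.99 in thymus. Spleen stood apart from every other array, and 1 thymus array reached the nodes. Spleen was above peripheral node by 1.12 ± 0.19 (log2, adjusted p = 2.57e-05, limma, n = 4) and above mesenteric node by 1.22, and thymus minus spleen was -1.96. The second Cd244 probe set (1426120_a_at) gave 1.65 and 2.12 for spleen against these nodes. It was below the filter within mesenteric node, where 1 array was at or below 0, and within thymus. Over the 32 arrays it passed with its highest levels in spleen, so its values are no separate support. The NK cell list mean over 7 markers was 8.05 to 8.32 in wild type spleen, 8.38 to 8.58 in peripheral node and 7.86 to 8.09 in mesenteric node. Its part in the Cd244 differences was not tested.

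Slamf7, also called CRACC, is a receptor of NK cells, plasma cells and activated lymphocytes that signals through another adaptor, EAT-2. In wild type mice it was 5.95, 5.61, 6.42 and 6.50 in thymus, against 7.51, 7.35, 7.78 and 7.48 in peripheral node, 7.46, 7.89, 7.69 and 7.44 in mesenteric node and 7.70, 7.82, 7.25 and 7.08 in spleen. The 3 peripheral tissues overlapped and thymus was below them all. Thymus minus peripheral node was -1.41 ± 0.18 (adjusted p = 2.22e-07, limma, n = 4), -1.50 against mesenteric node and -1.34 against spleen, and no other pair of tissues was called (adjusted p of 0.531 to 0.856).

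Slamf8 and Slamf9, the receptors with short tails, were the lowest in thymus relative to the nodes. Slamf8 was 6.36, 6.46, 6.10 and 6.14 in wild type thymus, against 8.70, 8.68, 8.37 and 8.39 in peripheral node, 9.23, 9.12, 9.05 and 9.33 in mesenteric node and 8.55, 8.45, 8.66 and 8.39 in spleen. Mesenteric node was highest without overlap, and thymus lay far below. Thymus was lower than mesenteric node by 7.55-fold (log2 -2.92 ± 0.17, adjusted p = 1.66e-14, limma, n = 4), than peripheral node by 4.83-fold and than spleen by 4.76-fold. Mesenteric node exceeded peripheral node by 0.64 ± 0.17 (adjusted p = 0.0267), the one SLAM family call in that pair, where 3.15% of all probe sets were called (1.72% higher and 1.43% lower). Without any 1 of the 4 wild type mice this call was lost (adjusted p of 0.0802 to 0.19, limma), as it was with the arrays scaled to a common median (0.0919) or as deposited (0.449).

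Slamf9 was 5.43, 5.74, 5.55 and 6.02 in wild type thymus, against 7.89, 8.21, 8.25 and 8.19 in peripheral node, 7.44, 8.01, 8.12 and 7.84 in mesenteric node and 6.91, 7.02, 6.91 and 6.90 in spleen. Spleen lay between thymus and the nodes with no overlap on either side. Thymus was lower than peripheral node by 5.45-fold (log2 -2.45 ± 0.14, adjusted p = 3.17e-14, limma, n = 4), and spleen was lower than peripheral node by 2.30-fold (adjusted p = 1.58e-07). The macrophage list mean was 9.71 in wild type thymus and 10.9 to 11.3 in the other tissues, and the dendritic cell list mean was 6.39 in thymus, 8.19 in peripheral node, 8.28 in mesenteric node and 7.87 in spleen. Their part in these differences was not tested.

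Between spleen and peripheral node 9 of 15 probe sets were called, 3 higher and 6 lower in spleen, where 41.2% of all probe sets were called (18.5% higher and 22.7% lower). Between spleen and mesenteric node 10 of 15 were called, 2 higher and 8 lower, where 37.6% of all were called (17.7% higher and 19.8% lower). The 15 include the second Cd244 probe set, which was below the filter within mesenteric node. By gene, 7 of 10 were called in each comparison, with Cd244 higher in spleen and Slamf1, Slamf6, Slamf9, Cd48 and Sh2d1a lower in both. Ly9 was the other gene lower than in peripheral node, and Slamf8 the other gene lower than in mesenteric node. On the values as deposited the calls of Slamf1, Slamf6 and Cd48 against both nodes, of Ly9 against peripheral node and of Slamf8 and Slamf9 against mesenteric node were lost (adjusted p of 0.0665 to 0.464, limma).

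The genes other than Sh2d1a lie on chromosome 1, and Sh2d1a lies on X. In the order of the RefSeq annotation Cd244, Ly9, Slamf7 and Cd48 come first, then Slamf1, Cd84 and Slamf6, with Tma7-ps as the only other gene annotated as protein coding among these 7. By their brightest probe sets, the first 4 were lower in thymus than in each other tissue, and the next 3 were higher in each. On these probe sets the sign changed once along the cluster. A dimmer Slamf6 probe set (1420659_at) was lower in thymus than in mesenteric node, without a call, and was not called against peripheral node. Slamf9 and Slamf8 follow after 14 and then 4 further protein coding genes and were lower in thymus. The change of sign falls between Cd48 and Slamf1, with Tma7-ps the only gene annotated as protein coding between them, and this order was not tested.

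**Figure D2:**
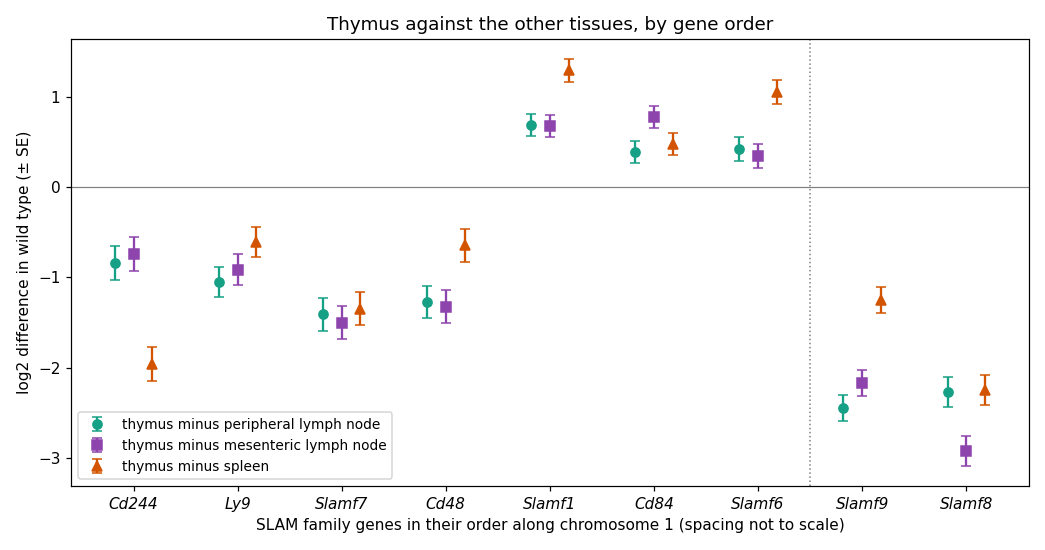
Log2 difference (± SE, limma) of wild type thymus minus peripheral node, mesenteric node and spleen for the 9 SLAM family genes on chromosome 1, in their order along it. Each gene is drawn by its brightest probe set only. Values are below 0 from Cd244 to Cd48 (-0.61 to -1.96), above 0 from Slamf1 to Slamf6 (0.34 to 1.29), and below 0 for Slamf9 and Slamf8 beyond the dotted line. The 3 comparisons share the thymus arrays, and spacing is not to scale.

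Between the genotypes, no SLAM family probe set was called in any tissue. In peripheral node 0 of 15 were called, where 0.037% of all probe sets were (10 of 27022). In mesenteric node 0 of 14 were called, where 0% of all were, in spleen 0 of 15, where 0.0111% were, and in thymus 0 of 13, where 0.0037% were. At an unadjusted p under 0.05 (limma) the SLAM family counts were 1, 1, 2 and 1 in the same order, against 8.36%, 4.71%, 8.56% and 7.26% of all probe sets. The median log2 difference of transgenic minus wild type was 0.06, -0.04, 0.18 and 0.02, against -0.01, 0.01, 0.01 and 0.00 over all probe sets. A p above the threshold does not show that levels were alike, and the 95% intervals below give the sizes that remain possible.

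**Figure D3:**
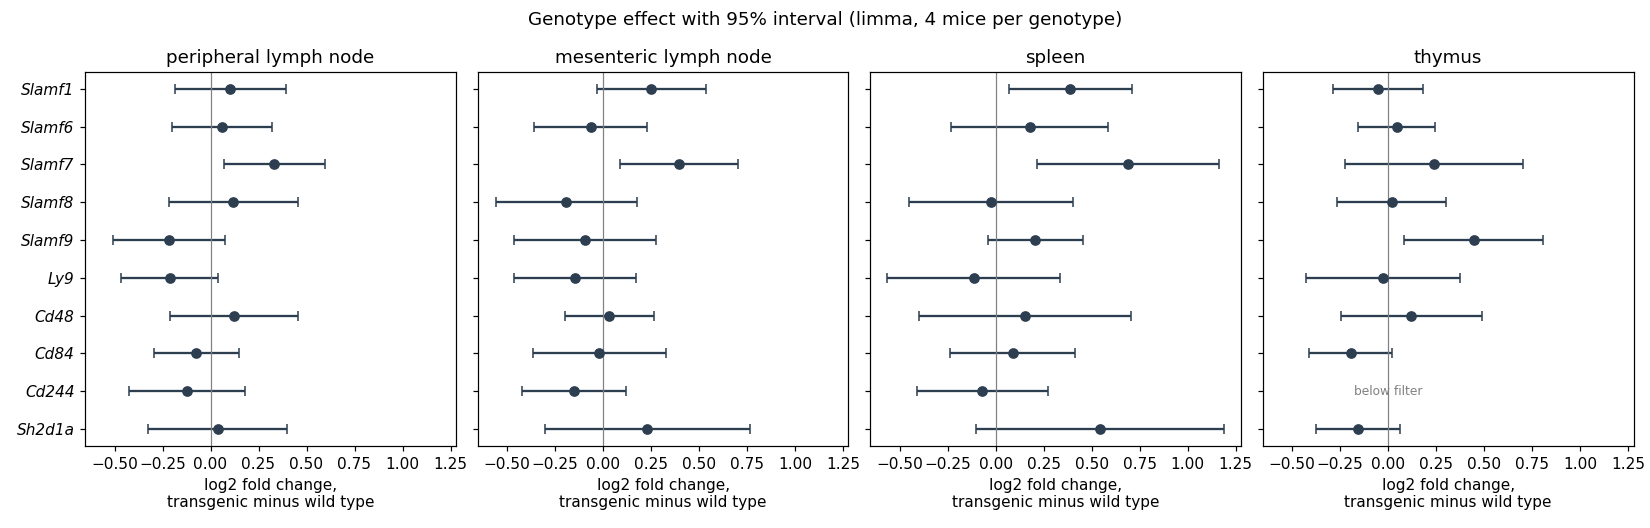
Log2 difference, transgenic minus wild type, with its 95% interval (limma, 4 mice per genotype) for each gene's brightest probe set in peripheral node, mesenteric node, spleen and thymus. Slamf7 lies to the right of 0 in every tissue, most in spleen (0.69, interval 0.22 to 1.16), and most other intervals cover 0. Cd244 is not drawn in thymus, where it did not pass the filter.

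Slamf7 had the smallest p of the 10 genes in peripheral node, mesenteric node and spleen. In spleen it was 8.05, 8.06, 8.18 and 8.72 on the tissue scale in transgenic mice, against 7.78, 7.91, 7.36 and 7.20 in wild type mice. The groups did not overlap, and 2.8% of all probe sets were separated in this direction in spleen. The log2 difference was 0.69 ± 0.21 (SE, 1.61-fold, 95% interval 0.22 to 1.16, n = 4), with an adjusted p of 0.540 by limma. Mice 3 and 4 differed by 1.17 between genotypes and mice 1 and 2, whose spleen arrays had the higher Actb ratios, by 0.21.

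In peripheral node Slamf7 was 7.90, 7.86, 8.03 and 8.07 in transgenic mice, against 7.61, 7.44, 7.90 and 7.58 in wild type mice. One wild type array, that of mouse 3, reached the lower transgenic values. The log2 difference was 0.33 ± 0.12 (adjusted p = 0.478, limma, n = 4), and 0.47 without the 3 arrays rich in muscle transcripts. In mesenteric node it was 7.69, 7.75, 8.06 and 7.90 in transgenic mice, against 7.30, 7.73, 7.53 and 7.27 in wild type mice, a difference of 0.40 ± 0.13 (adjusted p = 0.914, limma, n = 4). Wild type mouse 2 overlapped the transgenic values there, and without the 3 arrays with the most pancreas transcripts the difference was 0.47.

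In thymus Slamf7 was 6.25, 6.23, 6.31 and 6.69 in transgenic mice, against 5.97, 5.64, 6.42 and 6.49 in wild type mice, and the groups overlapped (0.24 ± 0.20, adjusted p = 0.819, limma, n = 4). Averaged over the 4 tissues of each mouse, a step added after the single tissues had been seen, Slamf7 was 7.46, 7.47, 7.63 and 7.84 in transgenic mice, against 7.15, 7.17, 7.29 and 7.12 in wild type mice. Every transgenic mouse was above every wild type mouse, as for 3.32% of all probe sets. The log2 difference was 0.42 ± 0.09 (95% interval 0.21 to 0.62) with an adjusted p of 0.25 by limma (n = 4), rank 136 of 27022 by p, and 19 probe sets (0.0703%) were called, with no SLAM family member among them.

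Markers of plasma cells, a known Slamf7-bearing type, stood higher beside these values. All 8 plasma cell markers were higher in transgenic spleen (median log2 difference 0.57) and in transgenic peripheral node (0.37), 7 of 8 were in mesenteric node and 6 of the 6 tested were in thymus, with 0 called in any tissue by limma and 5, 5, 3 and 2 at an unadjusted p under 0.05. Of all probe sets, 51.2%, 47.7%, 52.1% and 49.9% were higher in the same order, and 8.56%, 8.36%, 4.71% and 7.26% had such a p. The list mean was 8.92 to 9.55 in transgenic spleens against 8.28 to 8.79 in wild type spleens, and its summed intensity was 11980 to 15110 against 9857 to 11850. Its defining genes Jchain, Xbp1 and Sdc1 were above 0 on all arrays, Tnfrsf17 was at or below 0 on 6 of 32 arrays and Derl3 on 1. On the common scale, mean Jchain, Xbp1 and Sdc1 in mesenteric node were 12.54, 11.72 and 8.09 in transgenic mice. They were 12.5, 11.75 and 7.91 in wild type mice. The peripheral node means were 12.38, 11.74 and 8.37 in transgenic mice, against 11.41, 11.62 and 8.3 in wild type mice. In spleen, Prdm1 differed by 0.43 (adjusted p = 0.540). NK cell markers, another Slamf7-bearing type, gave list means of 8.02 to 8.41 in transgenic spleens and 8.05 to 8.32 in wild type spleens. The part of these cells in the Slamf7 values was not tested.

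**Figure D4:**
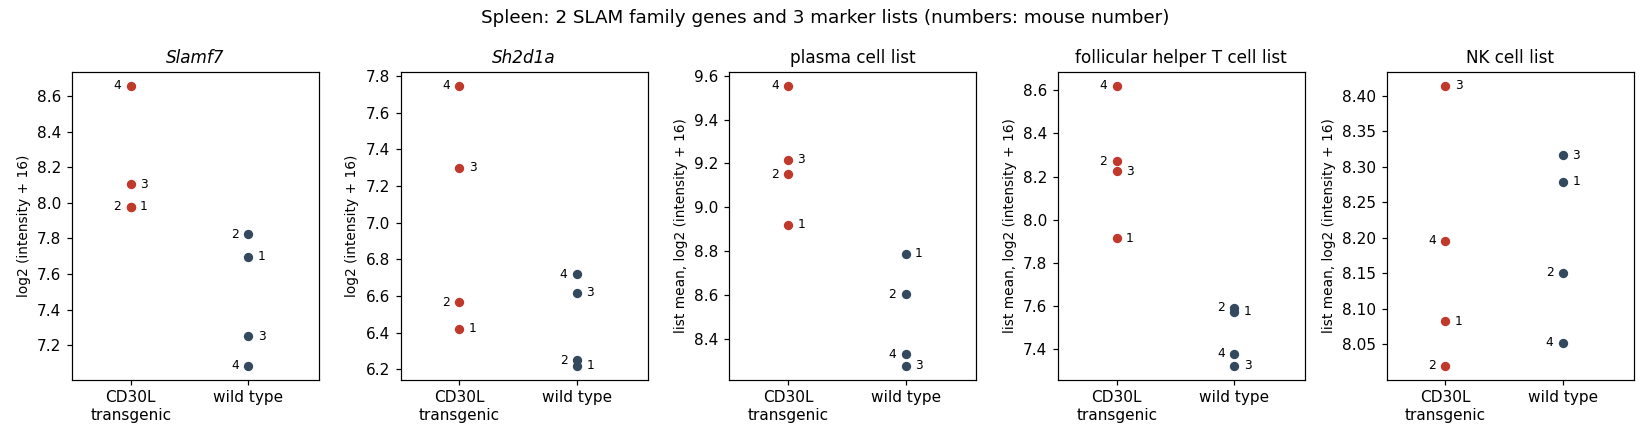
Slamf7, Sh2d1a and the list means of plasma cell, follicular helper T cell and NK cell markers on each spleen array (log2 (intensity + 16), common scale; 4 CD30L transgenic mice at left, 4 wild type mice at right; numbers are mouse numbers). Slamf7 and the plasma cell and follicular helper lists do not overlap between genotypes, while Sh2d1a and the NK cell list do. Of all single probe sets, 2.8% were higher in transgenic spleens without overlap on the tissue scale, and no such share was computed for list means.

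Slamf1 in spleen was 8.68, 8.78, 8.64 and 9.08 in transgenic mice, against 8.60, 8.53, 8.26 and 8.22 in wild type mice on the tissue scale. The groups did not overlap, as for 2.8% of all probe sets in this direction in spleen, although transgenic mouse 3 and wild type mouse 1 were close. The difference was 0.39 ± 0.14 (95% interval 0.07 to 0.71, adjusted p = 0.563, limma, n = 4), 0.16 in mice 1 and 2 and 0.62 in mice 3 and 4. Its other probe set past the filter gave 0.22 ± 0.21, and there the groups overlapped. In mesenteric node Slamf1 was 9.07, 9.22, 8.89 and 9.0 in transgenic mice, against 8.97, 8.54, 8.73 and 8.94 in wild type mice, overlapping, with a difference of 0.25 ± 0.12 (adjusted p = 0.972, limma, n = 4).

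Sh2d1a in spleen was 6.55, 6.69, 7.41 and 7.83 in transgenic mice, against 6.35, 6.38, 6.74 and 6.84 in wild type mice. Transgenic mice 3 and 4 were above all wild type mice, and transgenic mice 1 and 2 lay among them. The difference was 0.54 ± 0.28 (95% interval -0.10 to 1.19, adjusted p = 0.632, limma, n = 4), 0.26 in mice 1 and 2 and 0.83 in mice 3 and 4. With a block for mice numbered 1 and 2 against those numbered 3 and 4, it was 0.54 ± 0.15 (adjusted p = 0.334, limma). In thymus Sh2d1a was 10.43, 10.39, 10.71 and 10.60 in transgenic mice, against 10.67, 10.68, 10.72 and 10.68 in wild type mice. The difference was -0.16 ± 0.10 (adjusted p = 0.767, limma, n = 4), with overlap only at transgenic mouse 3. It was -0.27 in mice 1 and 2 and -0.05 in mice 3 and 4. Without the 2 arrays with the highest Actb ratios, those of transgenic mice 1 and 2, it was -0.03. That fit sets transgenic mice 3 and 4 against all 4 wild type mice, while thymus Actb ratios were higher in mice 1 and 2 of both genotypes.

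In peripheral node Sh2d1a was 7.72, 8.14, 8.02 and 8.05 in transgenic mice, against 7.84, 7.84, 8.37 and 7.73 in wild type mice, and the difference was 0.04 ± 0.16 (adjusted p = 0.968, limma, n = 4). It was 0.28 without the 3 arrays rich in muscle transcripts (adjusted p = 0.525). In mesenteric node it was 7.61, 7.62, 7.99 and 7.74 in transgenic mice, against 7.66, 6.78, 7.84 and 7.76 in wild type mice, and the difference of 0.23 ± 0.23 (adjusted p = 0.972) rested on the low value of wild type mouse 2, whose array had the highest pancreas list mean (13.2). It was -0.01 without that array.

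Follicular helper T cells, which depend on SAP, had markers that stood higher beside Sh2d1a in spleen. All 8 markers were higher in transgenic spleens, with a median log2 difference of 0.71, 0 called by limma and 6 at an unadjusted p under 0.05. Of all probe sets, 51.2% were higher there and 8.56% had such a p. The list mean was 7.91 to 8.62 in transgenic spleens against 7.33 to 7.59 in wild type spleens, and its summed intensity was 3042 to 4310 against 2549 to 2706. Pdcd1, the receptor PD-1, differed by 1.19 and Icos by 0.61 (adjusted p = 0.321 and 0.528). Sostdc1 was at or below 0 on 3 of 32 arrays. All 8 pan T cell markers were also higher there, with list means of 9.30 to 9.60 in transgenic spleens and 8.99 to 9.10 in wild type spleens. In peripheral node 3 of 8 follicular helper markers were higher (median log2 difference -0.11) and 0 of 8 pan T cell markers (-0.19). In mesenteric node 6 of 8 and 2 of 8 were higher (0.18 and -0.07), and in thymus 4 of 6 and 1 of 8 (0.08 and -0.10). Their part in the Sh2d1a and Slamf1 values was not tested.

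Germinal centre B cell markers also stood higher in the peripheral tissues of transgenic mice. All 7 tested were higher in transgenic peripheral node, mesenteric node and spleen, with median log2 differences of 0.90, 0.43 and 1.27, and 6, 5 and 7 at an unadjusted p under 0.05. Of all probe sets, 47.7%, 52.1% and 51.2% were higher in the same order, and 8.36%, 4.71% and 8.56% had such a p. Rgs13, a regulator of G protein signalling, was the one marker called, by 2.83 ± 0.25 in peripheral node (adjusted p = 0.0206, limma, n = 4) and 2.89 ± 0.30 in spleen (adjusted p = 0.0466), where no tested probe set was called with mice numbered 1 and 2 as one block and 3 and 4 as the other. The list mean was 7.59 to 8.56 in transgenic peripheral nodes against 6.51 to 6.84 in wild type ones, 8.64 to 8.87 against 7.99 to 8.44 in mesenteric node, and 7.46 to 8.70 against 6.18 to 6.53 in spleen, and its summed intensity in spleen was 1457 to 3290 against 619.2 to 815.3. In thymus 1 of 5 was higher (median -0.14). Like the other marker lists, this one was chosen with earlier results of these data known, so its counts are a description. Mef2b was at or below 0 on 4 of 32 arrays, and Bcl6 is also on the follicular helper list. The part of these cells in the SLAM family values was not tested.

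Slamf9 in thymus was 5.89, 6.12, 6.19 and 6.46 in transgenic mice, against 5.47, 5.77, 5.58 and 6.04 in wild type mice. Only wild type mouse 4 reached into the transgenic range. The difference was 0.45 ± 0.16 (95% interval 0.08 to 0.81, adjusted p = 0.659, limma, n = 4). It was 0.38 in mice 1 and 2 and 0.51 in mice 3 and 4. Without the 2 arrays with the highest Actb ratios it was 0.60, which sets transgenic mice 3 and 4 against all 4 wild type mice. Thymus Actb ratios were higher in mice 1 and 2 of both genotypes, so the 0.60 mixes genotype with this split. All 7 macrophage markers tested were higher in transgenic thymus (list means of 9.78 to 9.96 in transgenic mice against 9.61 to 9.84 in wild type mice), and so were 6 of the 6 B cell markers tested (list means over 7 genes of 6.82 to 7.53 against 6.40 to 6.79), with 0 called in both. Of all probe sets, 49.9% were higher in transgenic thymus. The B cell marker below the filter, Pax5, had a mean of 4.00 in transgenic and 4.58 in wild type thymus on the common scale. The part of these cells in the Slamf9 value was not tested, and Slamf8, the other short-tailed receptor, differed by 0.02 ± 0.12 in the same arrays. In peripheral node Slamf9 was 8.12, 7.78, 8.23 and 8.04 in transgenic mice, against 8.01, 8.33, 8.38 and 8.32 in wild type mice, overlapping, a difference of -0.22 ± 0.13 (adjusted p = 0.701).

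Ly9 in peripheral node was 9.43, 9.60, 9.41 and 9.14 in transgenic mice, against 9.62, 9.59, 9.51 and 9.72 in wild type mice. Transgenic mouse 2 overlapped the wild type range, and the difference was -0.21 ± 0.11 (adjusted p = 0.673, limma, n = 4). Cd84 in thymus was 8.83, 8.79, 8.96 and 8.88 in transgenic mice, against 8.90, 9.0, 9.17 and 9.16 in wild type mice, and the groups overlapped (-0.19 ± 0.09, adjusted p = 0.719). Cd244 in mesenteric node was 5.60, 5.32, 5.46 and 5.45 in transgenic mice, against 5.55, 5.45, 5.54 and 5.90 in wild type mice, overlapping (-0.15 ± 0.12, adjusted p = 0.972).

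By their brightest probe sets, Slamf6, Slamf8 and Cd48 had log2 differences between genotypes of -0.19 to 0.18 in the 4 tissues, all with intervals covering 0. A dimmer Slamf6 probe set (1420659_at) gave 0.37 ± 0.17 in spleen and 0.20 ± 0.10 in peripheral node (adjusted p = 0.585 and 0.665, limma). It gave 0.11 in mesenteric node and 0.05 in thymus, and its intervals also covered 0. The remaining Slamf6 probe set (1457773_at) gave 0.09 in spleen and -0.02 in peripheral node. The ligand and receptor pair Cd48 and Cd244 differed in spleen by 0.15 ± 0.24 and -0.07 ± 0.15. The probe sets of Cd84 disagreed in peripheral node, where the dimmer one (1446505_at) gave 0.54 ± 0.24 and the brighter one -0.07 ± 0.10. The second Cd244 probe set had the widest interval, -1.09 to 1.06 in peripheral node.

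Whether the genotype difference itself differed between tissues was tested on each mouse's difference between a pair of tissues. No SLAM family probe set was called in any of the 6 pairs, where 0.0111% of all were called for thymus minus spleen (3 of 27022) and 0% in each of the others. For Slamf9 the difference was 0.46 in thymus and -0.21 in peripheral node, 0.68 ± 0.19 apart (adjusted p = 0.373, limma, n = 4). For Sh2d1a it was -0.16 in thymus and 0.56 in spleen on the common scale, -0.72 ± 0.26 apart (adjusted p = 0.570).

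Of 26 other genes of SLAM signalling that were listed, 21 were analysed here. Between the genotypes 0 of 20 were called in peripheral node, mesenteric node and spleen, and 0 of 21 in thymus. In spleen the smallest p belonged to Bcl6, the repressor that defines follicular helper and germinal centre cells (0.59 ± 0.18, adjusted p = 0.540), to Fyn, the kinase recruited by SAP (0.39, adjusted p = 0.565), and to Ptpn11, the phosphatase SHP-2 (-0.25, adjusted p = 0.573). In peripheral node they belonged to the adaptor Lat (-0.26), Bcl6 (0.37) and the inhibitory adaptor Dok2 (-0.22), and in mesenteric node to the adaptor Sh3bp2 (-0.19), Bcl6 (0.22) and the phosphatase SHIP-1, encoded by Inpp5d (0.27). In thymus they belonged to Cd2, the receptor that binds CD48 (0.22), Ptpn6, the phosphatase SHP-1 (-0.18), and Bcl6 (-0.14). None of these passed the test (adjusted p of 0.422 to 0.972, limma).

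Between tissues of wild type mice the same list held calls in both directions. Against spleen, thymus had 8 of 20 higher and 7 lower, where 27.5% and 24.5% of all probe sets were called in these directions. The adaptor Lat (2.54), the kinase Prkcq (1.37), Bcl6 (1.36), which is also on the follicular helper list, and Dok2 (1.14) were among the higher, and the lower included the paracaspase Malt1 (-1.58), Sh3bp2 (-1.46), Inpp5d (-1.41) and Dok1 (-0.89). Ptpn6 and Ptpn11, the phosphatases that compete with SAP for the receptors' tails, were lower in thymus than in spleen, at -0.75 and -0.60. Fyn showed no called difference between thymus and any other tissue (0.22 against spleen, adjusted p = 0.127). Lat and Cd2 are also on the pan T cell list. Against peripheral node 6 of 20 were called higher and 10 lower, where 29% and 29.6% of all probe sets were. Against mesenteric node 6 were called higher and 9 lower, where 29.5% and 27.2% of all were. Zbtb16, the factor of NKT cells, was lower in thymus than in peripheral node (-0.89, adjusted p = 7.96e-05) and in spleen than in peripheral node (-0.92). Spleen gave 11 calls of 20 against peripheral node and 9 against mesenteric node, where 41.2% and 37.6% of all were called, and mesenteric against peripheral node gave 2 (Dok2 at -0.32 and Cd2 at -0.39), where 3.15% of all were called.

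The genes outside the family whose levels followed each member most closely over the 32 arrays are given as a description, since these arrays come from 8 mice and fall into 4 tissue clusters. Among 12973 genes, Sh2d1a was most like Rcbtb2 (r = 0.984), Cd28 (r = 0.981) and Themis (r = 0.98), and Slamf1 most like Cd4 (r = 0.937), Egr1 and Polg. Slamf8 was most like Spi1 (r = 0.98), Rcn3 and Gm2a, Slamf9 most like Relb (r = 0.972), Phyh and Tmed3, and Cd244 most like Spic (r = 0.948), Rgs18 and Clec4b1. Slamf7 followed Gng10 (r = 0.947), C130026I21Rik and St6gal1, Cd48 followed Glud1 (r = 0.972), Ctsa and Plekha3, and Slamf6 followed Nedd4l (r = 0.962), Rhoh and Pnrc1. Ly9 and Cd84 had looser matches, at most 0.908 (Kbtbd11) and 0.866 (Marchf7).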

How the data were processed

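Each array's deposited values were linear intensities, some negative; with 64 controls left out, 45037 probe sets remained. For the authors' summarisation and scaling, no method was given in the sources used here. Total RNA (5 µg) was labelled with biotin, per the labels. After negative intensities had been replaced by 0, log2 of the value plus 16 was computed, followed by quantile normalization of the 8 arrays of a tissue or of all 32 arrays. Probe sets above the 40th percentile of mean level were kept (27022). The array's annotation gave 1 symbol for 34945 probe sets, several for 932 and none for 9160, and names came only from those with 1. limma 3.58.1 in R 4.3.3 was used with Benjamini-Hochberg adjustment, after its steps had been tested on simulated data. Genotypes were compared within a tissue, and tissues in 1 fit over 8 groups. Same-mouse tissues are paired by the labels. With the mouse as a fixed block, each mouse a term of the fit, calls of brightest probe sets changed only where given.

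Members, marker lists and the pathway list were chosen with earlier results of these data known. For a gene the brightest probe set stands. Levels on each array are given for the 3 genes with the smallest p between genotypes in a tissue, for Sh2d1a, and for any gene called, and from the pathway list for genes called or else the 3 with the smallest p. For the tissue comparisons of that list, examples are named. Alternatives were pseudocounts of 1 and 64, the values as deposited, a common median, no filter and a filter at the 60th percentile, blocks, array weights, an intensity trend, 1 fit over all arrays, and each mouse or the doubted arrays left out. The number of arrays limits the precision. The mean over the 4 tissues of a mouse was added after the data were seen.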

Additional observations from a re-analysis of the deposited data

Results flagged for a closer look

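In 5 of 80 sets of 4 arrays (10 genes, 8 groups), 1 array lay far from the other 3, by Dixon's test at the 95% level on the tissue scale, where chance alone marks about 1 set in 20. Slamf6 was 9.74 in the peripheral node of transgenic mouse 2, while the other 3 were at 9.48 to 9.51. Slamf9 was 7.13 in the spleen of wild type mouse 2, while the others were at 7.02 to 7.03. Cd48 was 10.27 in the spleen of wild type mouse 3, while the others were at 9.52 to 9.57. Cd244 was 5.50 in the peripheral node of transgenic mouse 4, while the others were at 5.85 to 5.88. Sh2d1a was 6.78 in the mesenteric node of wild type mouse 2, the array with the most pancreas transcripts, while the others were at 7.66 to 7.84.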

How the results depend on the processing

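No SLAM family probe set was called between the genotypes under any alternative (19 to 20 in each tissue, 14 for the mean over tissues), while the counts over all probe sets ran from 0 to 128 in peripheral node, 0 to 3 in mesenteric node, 0 to 218 in spleen and 0 to 56 in thymus, the highest in 1 fit over all 32 arrays except in mesenteric node, where it came without the filter. Slamf7 kept its positive sign in each, at 0.27 to 0.55 in peripheral node, 0.32 to 0.53 in mesenteric node, 0.45 to 0.80 in spleen and 0.07 to 0.41 in thymus (adjusted p of 0.0677 to 1). Sh2d1a changed sign in peripheral node without transgenic replicate 2 (-0.018) and without wild type replicate 4 (-0.036), and in mesenteric node without wild type replicate 2 (-0.015) and without the 3 arrays with the most pancreas transcripts (-0.074), in each case from a value within its error. Over each mouse left out in turn it ran from -0.036 to 0.18 in peripheral node and from -0.015 to 0.34 in mesenteric node. Cd48 and Ly9 in spleen against peripheral node lost their call in 3 and 5 of 11 alternatives, Cd84 and Slamf6 in thymus against peripheral node in 3 and 4, and Slamf6 in thymus against mesenteric node in 5.

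With the values as deposited, SLAM family calls were 5 for spleen against peripheral node and 5 against mesenteric node, against 9 and 10 after normalization, and 0 for mesenteric against peripheral node. The count for mesenteric against peripheral node was also 0 without each wild type mouse in turn (0 to 0), and 2 with the replicate block by mouse. Counts for thymus stayed within 10 to 14. As deposited, the median of all probe sets shifted by 0.18 in peripheral node and -0.17 in spleen between genotypes and by up to 0.33 between tissues, so values on that scale are read against those shifts. The cause of these changes was not tested.

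Mouse numbers are shared across genotypes, but same-numbered mice did not deviate together in every pair (r from -0.44 to 0.33 over the 16 pairs), so the numbers were not taken to pair mice. In spleen 3 of 4 pairs were over 0.1 (0.162, 0.292 and 0.32, with 0.0229 for mice numbered 4), and across genotypes r was positive among mice numbered 1 and 2 and among those numbered 3 and 4, and negative between these sets, which also differed in Actb ratio. With the replicate block by mouse number the SLAM family count was 0 in each tissue, and Slamf7 in spleen had an adjusted p of 0.549. It was 0.354 where mice numbered 1 and 2 formed one block and those numbered 3 and 4 the other.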
